A study of Mus musculus with 8 samples.

Results

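Nrip1 and 9 genes of fat cell formation were followed in mouse embryonic fibroblasts (MEFs) of 2 genotypes, wild type (WT) and Dp1Tyb. The members are the 10 genes whose Ensembl IDs in the deposited count table map to the symbols Nrip1, Pparg, Ppargc1a, Cebpa, Cebpb, Cebpd, Fabp4, Lpl, Cd36 and Plin2 on mouse genome build GRCm38. All 10 were found among the 19493 endogenous genes of the table and all 10 passed the filter on low counts, which kept 16470 genes. Nrip1 lies on chromosome 16 inside the segment that is duplicated in Dp1Tyb and so has 3 copies there and 2 in WT, a ratio of 1.5, whereas the other 9 genes have 2 copies in both genotypes. Cebpd is also on chromosome 16 but outside that segment.

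Adipogenesis is the programme by which a fibroblast-like precursor turns into a fat-storing cell. In the usual description, Cebpb and Cebpd respond first to inducing hormones, then Pparg and Cebpa switch on and maintain each other, and the genes for fatty acid uptake, transport and storage follow. Nrip1 encodes RIP140, a corepressor that binds ligand-activated nuclear receptors, recruits histone deacetylases and C-terminal binding proteins, and is known in fat tissue for holding back oxidative genes that the coactivator PGC-1α, encoded by Ppargc1a, turns on.

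The data are RNAseq libraries of 4 WT and 4 Dp1Tyb cultures, each from an E14.5 embryo, with the same labelled strain background in both genotypes and, by the study's methods, backcrossed to C57BL/6JNimr. Dp1Tyb cells carry Dp(16Lipi-Zbtb21)1TybEmcf, a duplication of mouse chromosome 16 from Lipi to Zbtb21, and the controls were littermates without it. The cultures were passaged primary cells and not a clonal line, and the growth protocol names no inducer of adipogenesis. The levels are thus those of whole fibroblast cultures in ordinary serum medium. Every culture received ERCC spike-in RNAs in proportion to its cell number ahead of extraction, which lets the counts be scaled to the spike-ins (called absolute normalisation by the authors) or to the bulk of the endogenous genes (relative normalisation).

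The libraries held 17698900 to 26471758 counts, of which 0.882% to 1.65% were spike-ins. The endogenous signal per spike-in ranged from 0.688 to 1.31 across libraries and overlapped between genotypes, being 0.713 to 1.19 in WT and 0.688 to 1.31 in Dp1Tyb. Relative to the TMM factors, spike-in scaling moved the median of the log2 fold changes over the tested genes from 0.01 to 0.11, a shift of 0.11, and widened the typical spread between replicates, the biological coefficient of variation being 0.351 with spike-in and 0.232 with relative scaling. Fibroblast markers were abundant, with all 10 of 10 tested and a summed relative level of 23870 to 34391 CPM (counts scaled for library size) in WT and 28211 to 33752 in Dp1Tyb. Markers of mature adipocytes had few counts. Adipoq, which encodes adiponectin, had 1, 8, 35 and 32 counts in the WT libraries and 0, 5, 7 and 20 in Dp1Tyb, Plin1, the lipid droplet coat of mature fat cells, had 5 to 22 and 0 to 6 counts, and 4 of the 7 adipocyte markers had no row in the table. Slc2a4, the only adipocyte marker to pass the filter, had 16 to 37 counts in WT and 7 to 16 in Dp1Tyb, and the 3 listed markers summed to 2.62 ± 0.940 CPM in WT and 1.29 ± 0.811 CPM in Dp1Tyb, with overlap. The part of such cells in the levels of Pparg and Cebpa was not tested.

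No member passed the main test for a genotype difference. A block by replicate number, which the labels do not define as pairs, called 1 member with each scaling, Cd36 with spike-in and Lpl with relative scaling. Of all 16470 genes, that edgeR fit called 9 with spike-in and 7 with relative scaling. The Cd36 call rests on a spread pooled over genes, and its adjusted p in the relative fit was 0.233. In edgeR's quasi-likelihood test with Benjamini-Hochberg adjustment over all 16470 genes, 0 of 10 members had an adjusted p under 0.05 with either scaling, beside a background of 0.0121% of all tested genes with spike-in scaling (2 genes) and 0.0182% with relative scaling (3 genes). DESeq2 and limma-voom also called 0 of 10 with both scalings. At an unadjusted p under 0.05, edgeR picked 2 members with spike-in scaling (Lpl and Cd36), against 1.17% of all genes, and 3 with relative scaling (Nrip1, Cebpa and Lpl), against 4.27%. Split by direction, Lpl and Cd36 were lower, as 0.316% of all genes were at that level with spike-in scaling and 0.85% were higher, and with relative scaling Nrip1 was higher, as were 1.74%, and Cebpa and Lpl lower, as were 2.53%. The corresponding counts were 1 and 3 in DESeq2, where 145 and 706 of all 16470 genes passed, and 2 and 4 in limma-voom, where 197 and 717 did. By estimate alone, 3 members (Nrip1, Cebpd and Plin2) were higher and 7 lower in Dp1Tyb with both scalings, and their median log2 fold change was −0.22 with spike-in and −0.37 with relative scaling, whereas 29.6% and 48.8% of all tested genes were lower. For the 9 members outside the duplication these medians were −0.32 and −0.45.

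**Figure D1:**
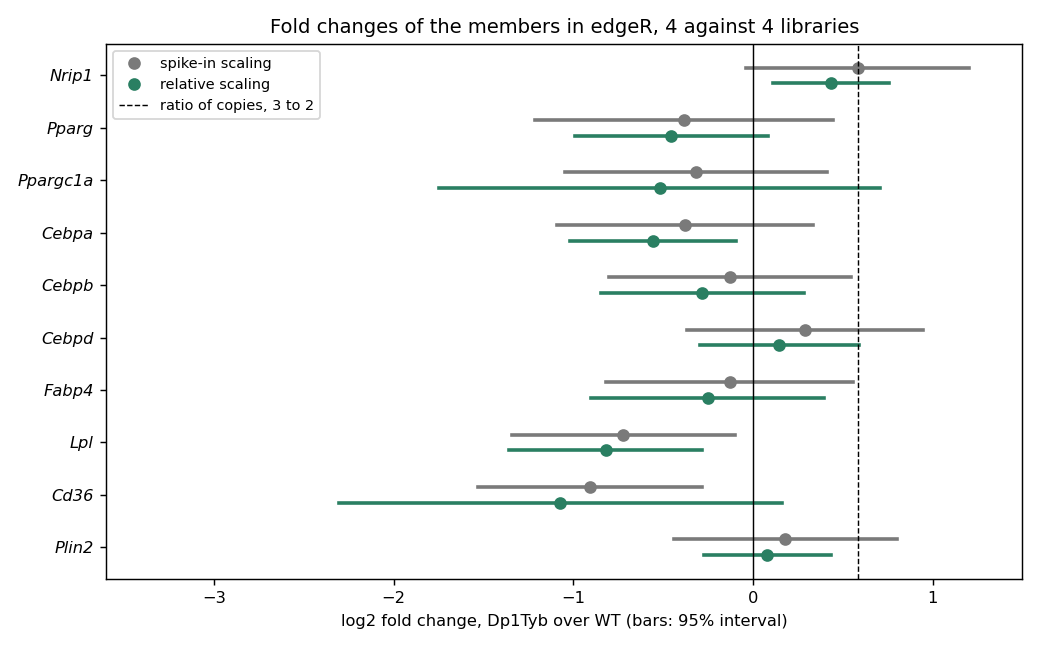
Log2 fold change of Dp1Tyb over WT (x axis) for each member (y axis) from edgeR, with 95% intervals, for spike-in scaling in grey and relative scaling in green. The dashed line marks the ratio of copies, and the relative intervals of Nrip1, Cebpa and Lpl leave out 0 while those of the other 7 members include it.

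Nrip1 (ENSMUSG00000048490, chr16:76287400-76373827, minus strand) was the one duplicated member, and its level in Dp1Tyb was compared with WT and with the ratio of copies. On the relative scale it stood at 88.2, 85.4, 115 and 119 CPM in WT replicates 1 to 4 and at 155, 113, 136 and 147 CPM in Dp1Tyb replicates 1 to 4, with means of 102 ± 17.5 and 138 ± 17.9 (SD, n = 4 each). The genotypes overlapped through a single library, as Dp1Tyb replicate 2 lay below WT replicates 3 and 4 while the other 3 Dp1Tyb libraries lay above all WT. The fold change was 1.35 with a 95% interval of 1.08 to 1.69, which is 0.43 (SE 0.14) in log2, and the edgeR test gave an adjusted p of 0.999 (unadjusted p 0.0134).

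Scaled to the spike-ins, Nrip1 gave 2185, 1575, 1715 and 2904 counts in WT and 3889, 1629, 2990 and 4034 in Dp1Tyb, or 2095 ± 599 and 3135 ± 1106. Dp1Tyb replicate 2 again fell within the WT range and the other 3 above it. The fold change on this scale was 1.5 with a wider interval, 0.974 to 2.30, and an unadjusted p of 0.0660 in edgeR. Tested against a fold change of 1.5 in place of 1, the log2 difference was 0.00 (SE 0.32, unadjusted p 0.992) with spike-in and −0.15 (SE 0.14, 95% interval −0.47 to 0.17, unadjusted p 0.324) with relative scaling. The relative interval thus left out no change at the unadjusted level and included the ratio of copies, while the spike-in interval included both.

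The start of Nrip1 is shown because it lies inside the duplicated segment. RefSeq has 2 annotated starts of Nrip1 on GRCm38.p6, and each window runs from 250 bases before to 50 bases after the start, written 5′ to 3′ on the minus strand. The motifs searched on both strands were the C/EBP palindrome TTGCGCAA, CCAAT, the nuclear receptor half-site AGGTCA, the GC box GGGCGG and the TATA sequence TATAAA, and capitals mark their matches. Among 32851 windows of this length over all genes, these occurred in 0.183%, 37.4%, 16.3%, 35.7% and 13.6%, in that order.
Nrip1 upstream start, chr16:76373778-76374077, minus strand: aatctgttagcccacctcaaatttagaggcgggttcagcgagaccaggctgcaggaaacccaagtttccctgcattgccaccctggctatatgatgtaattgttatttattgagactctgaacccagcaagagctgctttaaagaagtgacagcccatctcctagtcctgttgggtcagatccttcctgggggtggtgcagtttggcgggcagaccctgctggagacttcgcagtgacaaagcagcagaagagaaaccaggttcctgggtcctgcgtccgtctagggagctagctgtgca
Nrip1 downstream start, chr16:76373000-76373299, minus strand: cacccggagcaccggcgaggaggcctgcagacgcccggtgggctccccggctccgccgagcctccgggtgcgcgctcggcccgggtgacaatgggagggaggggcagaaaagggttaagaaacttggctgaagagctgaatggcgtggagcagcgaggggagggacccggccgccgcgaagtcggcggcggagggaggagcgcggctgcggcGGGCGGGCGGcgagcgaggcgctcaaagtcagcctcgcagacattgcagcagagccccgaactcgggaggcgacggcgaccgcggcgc
The upstream window, 52.7% G and C, held none of these motifs, and the downstream window, 73.3% G and C, held 2 GC boxes at positions 213 and 217 from its 5′ end, which overlap each other. A match describes the letters only, and the gene counts do not separate transcripts from the 2 starts.

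Nrip1 sits near the Lipi end of the duplication, and the genes next to it give its local context. Usp25, which encodes a deubiquitinase, was at 85.4 to 98.5 CPM in WT and 137 to 167 CPM in Dp1Tyb, with no overlap, a log2 fold change of 0.69 (SE 0.10) with relative scaling and an adjusted p of 0.0903 in edgeR. Cxadr, the coxsackievirus and adenovirus receptor, also had all 4 Dp1Tyb libraries above all WT on this scale, where 1.64% of all tested genes did, and its log2 fold change was 0.64 (SE 0.14, adjusted p 0.441). Hspa13, a chaperone of the heat shock protein family, stood at 0.62 (SE 0.22) and Btg3, an antiproliferative gene, at 0.70 (SE 0.21). Cxadr and Btg3 overlap on opposite strands, and the strand option of the counting is not stated, so their counts may share reads.

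The 2 other neighbours were barely expressed. Rbm11 had 6 to 14 counts per library and a log2 fold change of 0.29 (SE 0.33), and Samsn1 had 4 to 23 counts and −0.53 (SE 0.41). Of the 7 genes from Rbm11 to Btg3, edgeR called 0 with either scaling, and limma-voom also called 0. In edgeR, 5 of the 7 had an unadjusted p under 0.05 with relative scaling, beside 4.27% of all tested genes. With spike-in scaling 4 did, beside 1.17%. DESeq2 called 2 with relative scaling, Usp25 (adjusted p 5.77e-06) and Cxadr (adjusted p 0.0330), where it called 53 of all 16470 genes. With spike-in scaling it called 0 of the 7 and 2 of all genes. The interval of Nrip1 overlapped those of Hspa13, Usp25, Cxadr and Btg3, and a difference between Nrip1 and its neighbours was not tested.

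**Figure D2:**
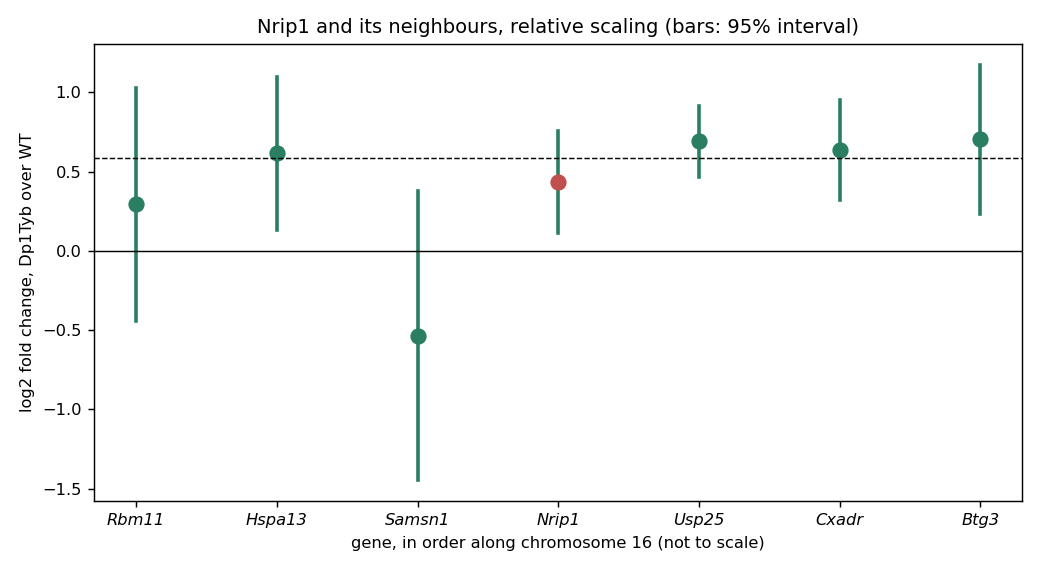
Log2 fold change of Dp1Tyb over WT with relative scaling (y axis) and 95% interval for Nrip1 in red and its neighbours in green, in order along chromosome 16 (x axis, not to scale). The dashed line marks the ratio of copies, and all intervals except those of the thinly counted Rbm11 and Samsn1 lie above 0.

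Pparg and Cebpa, the nuclear receptor and the C/EBP factor at the core of fat cell differentiation, had lower estimates in Dp1Tyb. Pparg (ENSMUSG00000000440, chr6:115360951-115490399, plus strand) was thinly counted, with 75 to 115 raw counts in WT and 49 to 81 in Dp1Tyb. Scaled to the spike-ins, it gave 83.1, 80.6, 81.2 and 119 counts in the WT libraries and 65.2, 67.1, 68.2 and 77.4 in Dp1Tyb, with means of 90.9 ± 18.5 and 69.5 ± 5.43. All 4 Dp1Tyb libraries lay below all 4 WT libraries, the only member for which the groups did not overlap, as was so in this direction for 0.14% of all tested genes and in either direction for 0.425%. The nearest libraries of the 2 groups were 77.4 and 80.6, and the log2 fold change in edgeR was −0.39 (SE 0.42, unadjusted p 0.362).

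On the relative scale the separation of Pparg was lost. Its values were 3.35, 4.37, 5.45 and 4.85 CPM in WT and 2.59, 4.67, 3.10 and 2.82 CPM in Dp1Tyb, so Dp1Tyb replicate 2 lay above 2 WT libraries. The log2 fold change was −0.45 with a 95% interval of −0.99 to 0.08 and an unadjusted p of 0.0892. No member had groups without overlap on this scale, where 3.16% of all genes did.

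RefSeq gives Pparg 3 annotated starts, which the gene counts add together. The window of the start furthest downstream is shown because it lies within the gene body, away from the other two.
Pparg, chr6:115421816-115422115, plus strand: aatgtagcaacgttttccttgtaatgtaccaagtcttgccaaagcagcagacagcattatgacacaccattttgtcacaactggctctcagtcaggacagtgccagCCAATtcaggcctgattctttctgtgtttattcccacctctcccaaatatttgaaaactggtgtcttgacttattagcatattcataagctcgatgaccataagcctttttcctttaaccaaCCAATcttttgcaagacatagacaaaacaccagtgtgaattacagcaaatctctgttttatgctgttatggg
It is 40.3% G and C and carries CCAAT, the core of the box found in 37.4% of windows, at positions 107 and 229 and none of the other motifs searched.

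Cebpa (ENSMUSG00000034957, chr7:35119293-35121928, plus strand) gave 11.7, 10.3, 15 and 12.2 CPM in WT and 10.8, 5.60, 8.66 and 8.29 CPM in Dp1Tyb, or 12.3 ± 1.96 and 8.34 ± 2.15. One Dp1Tyb library, replicate 1, exceeded the lowest WT library, and the other 3 lay below all WT. The log2 fold change of Cebpa was −0.55 (SE 0.21, 95% interval −1.02 to −0.09, unadjusted p 0.0234, adjusted p 0.999) with relative scaling in edgeR. With spike-in scaling it was −0.38 (SE 0.36, unadjusted p 0.299) and the groups overlapped more widely, at 190 to 299 counts in WT and 80.4 to 272 in Dp1Tyb.

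The early C/EBP factors had estimates of opposite sign, with intervals that included 0. Leaving out 1 library could turn either sign. Cebpb went to 0.11 without WT replicate 4 with spike-in scaling, and Cebpd to −0.0071 without WT replicate 2 with relative scaling. Cebpb (ENSMUSG00000056501, chr2:167688915-167690418, plus strand) ranged over 13.4 to 21.0 CPM in WT and 8.97 to 20.02 CPM in Dp1Tyb, with a log2 fold change of −0.28 (SE 0.25) with relative and −0.13 (SE 0.34) with spike-in scaling. Cebpd (ENSMUSG00000071637, chr16:15887286-15891031, plus strand) ranged over 12.3 to 23.3 CPM in WT and 17.7 to 25.4 CPM in Dp1Tyb, at 0.15 (SE 0.20) and 0.29 (SE 0.34). Cebpb overlaps Tmem189 and Cebpd overlaps Spidr on opposite strands, so reads of these pairs may have been shared if the counting did not use strand.

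Ppargc1a (ENSMUSG00000029167, chr5:51454250-51567726, minus strand), the coactivator of mitochondrial and oxidative genes, varied more between cultures of one genotype than between genotypes. It stood at 9.52, 2.42, 15.6 and 14.3 CPM in WT and at 13.7, 3.69, 4.33 and 7.25 CPM in Dp1Tyb. WT replicate 2 was the lowest of all 8 libraries, and Dp1Tyb replicate 1 reached the level of the upper WT libraries. Its log2 fold change of −0.52 had an interval from −1.75 to 0.71 with relative scaling, which spans a fall and a gain of more than 1.5-fold.

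**Figure D3:**
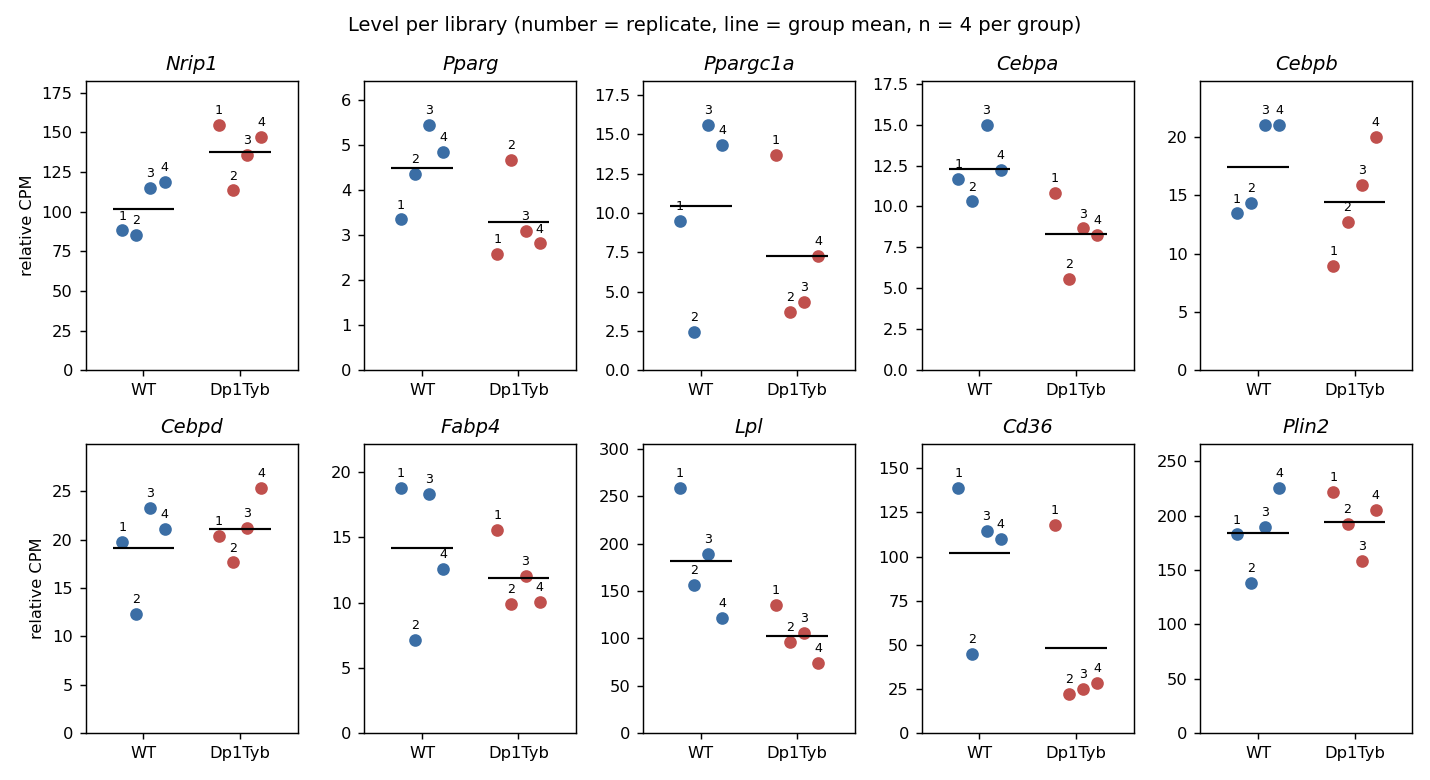
Relative CPM of each member in every library (y axes on their own scales), with WT and Dp1Tyb libraries as points numbered by replicate and a line at each group mean. The 3 Dp1Tyb libraries other than replicate 1 lie between 22.3 and 28.1 for Cd36, below the lowest WT library at 45.0, while the groups overlap for every member on this scale.

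Lpl and Cd36, both at the point where fatty acids enter the cell, had the lowest estimates among the members. Lpl (ENSMUSG00000015568, chr8:68880491-68907448, plus strand) encodes lipoprotein lipase, which frees fatty acids from circulating triglyceride. It was at 259, 156, 189 and 122 CPM in WT and 135, 95.8, 106 and 74.2 CPM in Dp1Tyb, or 182 ± 58.6 and 103 ± 25.3, and the overlap came from Dp1Tyb replicate 1 lying above WT replicate 4. The fold change of Lpl was 0.566, a log2 fold change of −0.82 (SE 0.24, 95% interval −1.36 to −0.28). Its p in edgeR, 0.00686 before and 0.984 after adjustment, was the smallest of the members on this scale. An edgeR fit with a block by replicate number gave −0.80 (SE 0.083) and an adjusted p of 0.0374, a call. That fit called 7 of all 16470 genes. The labels do not pair the numbers, whose same-number deviations correlated at 0.37, 0.52, 0.03 and 0.33. WT replicate 3 was closest to Dp1Tyb replicate 4, at 0.32, so the block cannot be taken as pairs of cultures.

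With spike-in scaling Lpl gave 6421, 2882, 2820 and 2971 counts in WT and 3397, 1377, 2333 and 2038 in Dp1Tyb. WT replicate 1 stood far above the other 3 WT libraries, which agreed closely, and 3 of 4 Dp1Tyb libraries lay below all WT. The log2 fold change was −0.72 (SE 0.32, unadjusted p 0.0226) and moved to −0.33 without WT replicate 1.

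Cd36 (ENSMUSG00000002944, chr5:17781690-17888801, minus strand), a fatty acid translocase and scavenger receptor, split the Dp1Tyb cultures. Its values were 139, 45.0, 114 and 110 CPM in WT and 118, 22.3, 25.0 and 28.1 CPM in Dp1Tyb, with means of 102 ± 40.1 and 48.4 ± 46.5. Dp1Tyb replicate 1 lay among the upper WT libraries, and the other 3 Dp1Tyb libraries lay below the lowest WT library. The log2 fold change with relative scaling was −1.07 (SE 0.55, 95% interval −2.31 to 0.16, unadjusted p 0.0816).

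With spike-in scaling the estimate for Cd36 was −0.91 with an SE of 0.32 and an unadjusted p of 0.00438 in edgeR, an error that understates how far its libraries lay apart. On that scale edgeR found no difference in spread between genes beyond the trend with level and gave nearly the same SE to members of unlike scatter, such as 0.32 to Plin2. DESeq2, which allowed Cd36 its own spread, gave an SE of 0.78 and an unadjusted p of 0.246, and limma-voom gave −1.25 with an SE of 0.33 (unadjusted p 0.000156, adjusted p 0.321). Without Dp1Tyb replicate 1 the estimates were −1.98 with an adjusted p of 0.000992 for spike-in scaling, a call with that pooled spread, and −2.02 with an adjusted p of 0.144 for relative scaling, which is no call. The spike-in fit without that library called 4 of all 16470 genes.

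The RefSeq window of Cd36 is shown as that of the member with the lowest estimate, and it lies inside the annotated gene and not at its 5′ end.
Cd36, chr5:17835847-17836146, minus strand: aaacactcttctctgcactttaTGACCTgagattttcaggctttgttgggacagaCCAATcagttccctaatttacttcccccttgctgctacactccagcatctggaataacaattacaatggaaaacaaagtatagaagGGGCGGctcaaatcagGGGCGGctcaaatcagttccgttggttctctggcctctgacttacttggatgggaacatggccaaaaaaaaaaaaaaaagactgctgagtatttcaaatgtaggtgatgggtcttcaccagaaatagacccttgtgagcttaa
It is 43% G and C and holds CCAAT at position 56, 2 GC boxes at positions 142 and 158 and, on the other strand, the nuclear receptor half-site AGGTCA at position 23, where it reads as TGACCT.

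Fabp4 and Plin2 handle fatty acids inside the cell, and their intervals included 0 with both scalings. Fabp4 (ENSMUSG00000062515, chr3:10204088-10208576, minus strand), the fatty acid binding protein of adipocytes and macrophages, ranged over 7.13 to 18.8 CPM in WT and 9.92 to 15.6 CPM in Dp1Tyb, with a log2 fold change of −0.25 (95% interval −0.90 to 0.39) with relative and −0.13 (−0.82 to 0.56) with spike-in scaling. Plin2 (ENSMUSG00000028494, chr4:86648386-86670060, minus strand), which coats lipid droplets in most cell types, was at 183, 138, 190 and 226 CPM in WT and 222, 193, 158 and 205 CPM in Dp1Tyb. Its log2 fold change with relative scaling was 0.08 with a 95% interval of −0.27 to 0.43, which left out a change of 1.5-fold in either direction, whereas the spike-in interval of −0.44 to 0.80 included such a gain.

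Between genes, levels were compared per length, as RPKM over all annotated exons (reads per kilobase, scaled for library size, mean of 8 libraries). Plin2 was highest at 53.9, followed by Cd36 at 20.9, Lpl at 13.6, Cebpb at 10.6 and Nrip1 at 10.5. Cebpd at 5.38, Cebpa at 3.91, Fabp4 at 2.91, Ppargc1a at 1.34 and Pparg at 1.32 made up the lower part. Between neighbours in this order, the ranges over the 8 libraries did not overlap only from Plin2 to Cd36 and from Nrip1 to Cebpd, with the higher gene ahead in 8 of 8 libraries. In 4 neighbouring pairs, Cd36 and Lpl, Lpl and Cebpb, Cebpb and Nrip1, and Ppargc1a and Pparg, the higher gene was ahead in only 5 of 8 libraries.

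The length used moved the level of 5 members, Nrip1, Pparg, Fabp4, Lpl and Plin2, by more than the replicate SD. Taking the longest protein-coding transcript, an alternative chosen after the data were seen, Fabp4 moved from 2.91 to 14.6 and Lpl from 13.6 to 34.5 RPKM, their annotated exons covering 4489 and 10478 bases and those transcripts 896 and 4115 bases. Lpl then stood above Cd36 at 22.1, Nrip1 at 15.2 above Cebpb at 10.6, and Fabp4 ranked 5 in place of 8. Plin2 stayed highest at 100.3 and Pparg at 1.84 and Ppargc1a at 1.37 stayed lowest. Of all tested genes, 95.8% were below Plin2 in RPKM over all exons, 73.6% below Nrip1 and 28.8% below Pparg, so the corepressor was well expressed in these cultures and the receptor was in the lower part of the detected genes.

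**Figure D4:**
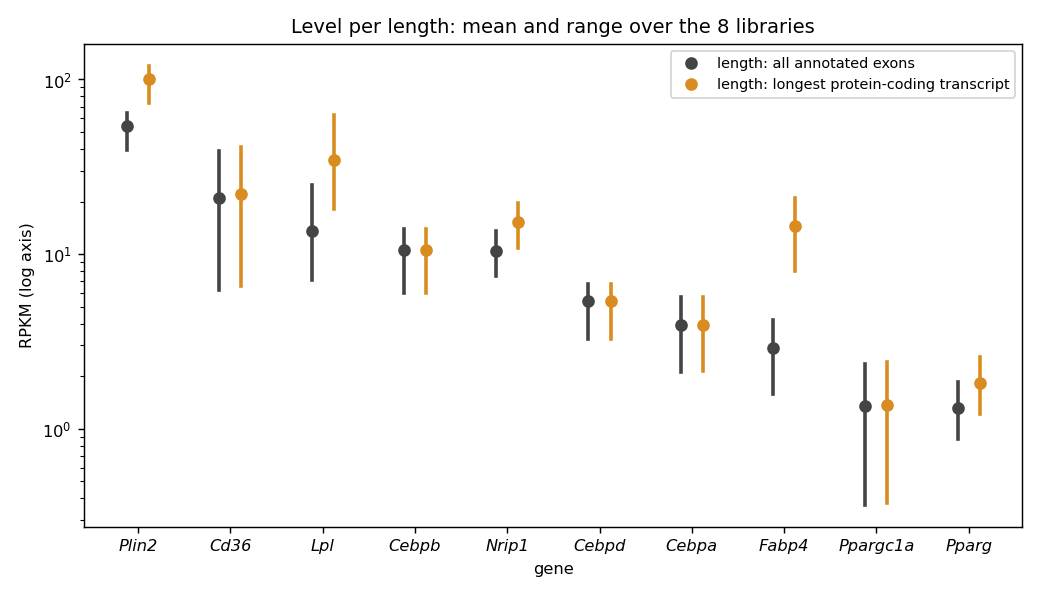
Mean and range over the 8 libraries of each member's RPKM (y axis, log scale), with length from all annotated exons in black and from the longest protein-coding transcript in orange. Plin2 is highest at 53.9 and 100.3, Pparg and Ppargc1a are lowest, and Fabp4 and Lpl move most between the 2 lengths.

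How far replicate cultures scattered differed strongly among the members. The SD of log2 relative CPM within genotype was 1.06 for Ppargc1a and 0.95 for Cd36, the 99.2 and 100 percentile of the 500 tested genes nearest to each in level. It was 0.51 for Fabp4, 0.43 for Cebpb and 0.41 for Lpl, at percentiles from 83.6 to 92.6, and 0.22 to 0.34 for Nrip1, Plin2, Cebpa, Cebpd and Pparg, at percentiles from 45.4 to 79. With spike-in scaling the SD was 0.51 for Nrip1, 0.52 for Plin2, 0.59 for Cebpa, 0.58 for Cebpd and 0.21 for Pparg. The ratio of the highest to the lowest library was 6.45 for Ppargc1a and 6.22 for Cd36 but 1.63 for Plin2 and 1.81 for Nrip1.

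**Figure D5:**
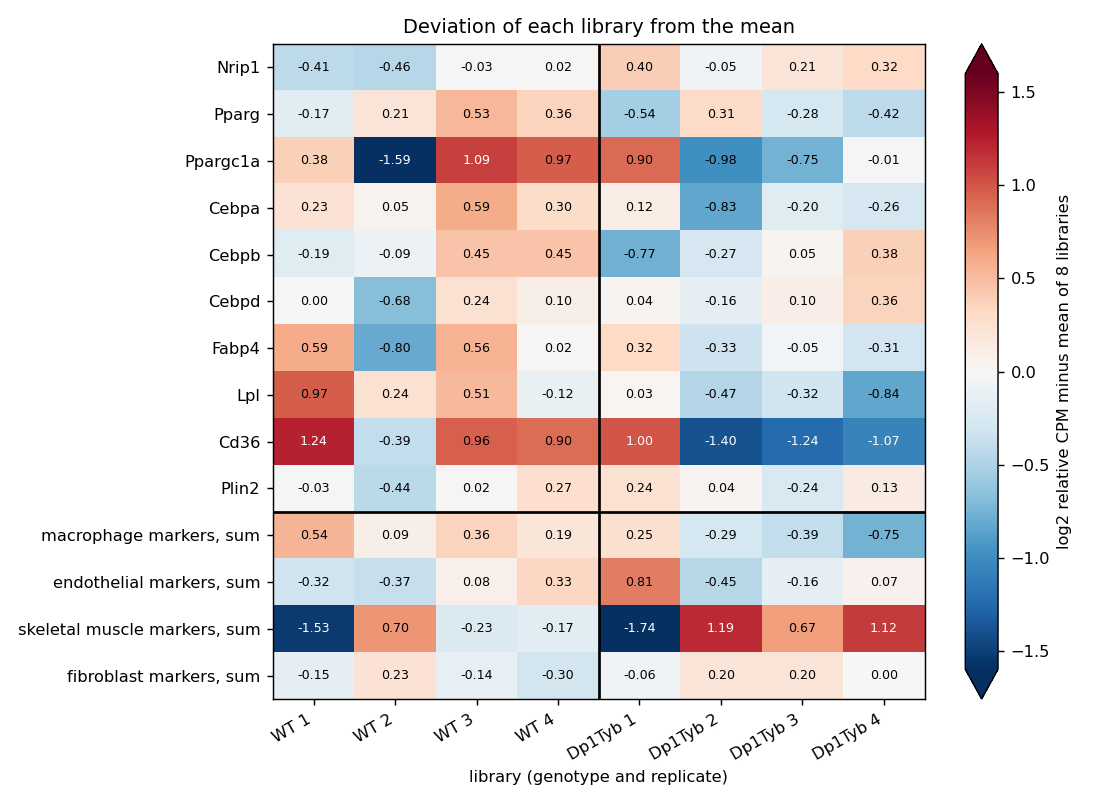
Log2 relative CPM of each member and log2 summed level of 4 marker lists (rows), centred on the mean over the 8 libraries (columns), with colours from low to high and the scale ended at a fixed value. Among the members, Ppargc1a and Cd36 show the widest range between libraries, and Dp1Tyb replicate 1 stands above the other Dp1Tyb libraries for both.

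No library was high or low for all members. WT replicate 1 ranked first of 8 for Fabp4, Lpl and Cd36 but seventh for Nrip1, and WT replicate 3 ranked first for Pparg, Ppargc1a, Cebpa and Cebpb. WT replicate 2 was last for Nrip1, Ppargc1a, Cebpd, Fabp4 and Plin2. Within Dp1Tyb, replicate 1 was the highest library for Nrip1, Ppargc1a, Cebpa, Fabp4, Lpl, Cd36 and Plin2 and the lowest for Pparg and Cebpb.

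Several members are also known from macrophages, and markers of that cell type were present in all cultures. The 8 macrophage markers summed to 374, 273, 329 and 292 CPM in WT and 306, 210, 195 and 152 CPM in Dp1Tyb, or 317 ± 44.4 and 216 ± 64.6, with 8 of 8 lower by estimate, 0 of 8 called by edgeR and none at 0 in every library. With relative scaling the unadjusted p in edgeR was under 0.05 for Ptprc (3.30e-05), Cd14 (0.00822), Csf1r (0.0147), Adgre1 (0.0153), Cd68 (0.0337) and Tyrobp (0.0486). Lyz2 and Fcer1g were at 0.0549 and 0.0926. Of all tested genes, 2.53% were lower with a p under 0.05. Ptprc and Tyrobp had all Dp1Tyb libraries below all WT, as 1.52% of all genes did, and Ptprc had a log2 fold change of −0.87 and an adjusted p of 0.0903. Lpl was highest in WT replicate 1 and lowest in Dp1Tyb replicate 4, and so was this sum. The part of these cells in the levels of Lpl, Cd36, Fabp4 and Plin2 was not tested, and in bulk RNA fewer cells of a type and less RNA per cell cannot be told apart. Markers of endothelium, a cell type known to express Cd36, summed to 35.3 to 57.5 CPM in WT and 33.6 to 80.4 CPM in Dp1Tyb. The highest sum, in Dp1Tyb replicate 1, came from Kdr alone at 72.3 CPM, and the 5 other markers summed to 8.12 CPM there beside 5.87 to 10.1 CPM in the other libraries. Skeletal muscle markers summed to 3.89 to 18.3 and 3.36 to 25.7 CPM, and those of mesothelium and epithelium to 19.1 to 42.3 and 14.1 to 33.4 CPM.

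For Nrip1, Pparg and Lpl, the genes with the most similar pattern were named by the root mean square distance between centred log2 relative CPM over the 8 libraries, among 11000 genes with a mean of at least 100 counts (11001 for Pparg). Nrip1, whose own values lay 0.29 from their mean, was nearest to Dyrk1a at 0.05, Mettl26 at 0.10 and Zbtb21 at 0.10, against a median distance of 0.34. Dyrk1a and Zbtb21 are on chromosome 16 within the duplication and Mettl26 is on chromosome 17. Lpl was nearest to Nckap1l at 0.13, Trem2 at 0.14 and Adgre1 at 0.17, against a median of 0.59, and Adgre1 is one of the macrophage markers. Pparg had no gene as close in proportion, its nearest being Eno3 at 0.17, Ednrb at 0.21 and Mthfd2l at 0.22 beside a median of 0.43. Its own mean of 81.6 counts, beside 2518 for Nrip1, was under the minimum set for the compared genes. The part of counting noise in its distances was not tested.

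Wider lists placed the members in their pathways, and no gene of any list was called with either scaling by edgeR, DESeq2 or limma-voom. Of 21 partners of RIP140, all tested, 12 were higher and 9 lower with relative scaling, with a median log2 fold change of 0.014 beside 0.0061 over all tested genes. The corepressor Ctbp1 at 27.7 RPKM and the deacetylase Hdac1 at 26.2 RPKM were the most abundant, with log2 fold changes of 0.09 and −0.01. Rxra, the receptor that pairs with Pparg and is also one of the 18 activators, was at 63.04 to 73.9 CPM in WT and 46.6 to 62.6 CPM in Dp1Tyb without overlap, with a log2 fold change of −0.29 and an unadjusted p of 0.0334, beside 1.52% of all genes with all Dp1Tyb libraries below all WT. Esr1, the oestrogen receptor, stood at 0.35 (unadjusted p 0.0733) from a level of 0.658 RPKM. The deacetylase Hdac3, singled out after its values were seen, had all Dp1Tyb libraries above all WT, as 1.64% of genes did, with a log2 fold change of 0.15 (unadjusted p 0.123). With spike-in scaling, 16 of the 21 partners were higher and 5 lower, with a median of 0.149 beside 0.112 over all tested genes. On that scale 11598 of all 16470 tested genes were higher, the background for the spike-in counts of every list here. Rxra overlapped between genotypes with spike-in scaling.

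Among the 18 activators of adipogenesis, 5 were higher and 13 lower with relative scaling, with a median of −0.08, and 11 were higher and 7 lower with spike-in scaling. The Krüppel-like factors Klf4 at 95.3 RPKM and Klf9 at 20.8 RPKM led in level, at −0.28 and −0.20, and the coactivator Ncoa2 stood at −0.19 (unadjusted p 0.0716). Of 20 inhibitors, 9 were higher and 11 lower with relative scaling, with a median of −0.05, and 11 and 9 with spike-in scaling. Hes1, a Notch target, was the most abundant at 49.6 RPKM, with a log2 fold change of 0.14. Dlk1, the preadipocyte marker Pref-1, stood at −0.43 (unadjusted p 0.0714) and Gata2 at −0.49 with relative scaling. With spike-in scaling the inhibitor with an unadjusted p under 0.05 was Gata3, at 0.83 (p 0.0150 in edgeR, adjusted p 1.00), named after its values were seen. Its relative level was 44.4 CPM in Dp1Tyb replicate 1 but 6.98 to 13.9 CPM in the other 3 Dp1Tyb libraries, beside 5.68 to 15.5 CPM in WT, so a single library set it apart.

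Of 28 genes of lipid storage and lipolysis, 19 were tested, 11 being higher and 8 lower with relative scaling and 12 and 7 with spike-in scaling. Cav1, the caveolar coat protein, was the most abundant at 177.6 RPKM with a log2 fold change of 0.22, and Fabp5, a relative of Fabp4, was at 20.2 RPKM and −0.14. Gpd1, which makes the glycerol backbone of triglyceride, had the smallest p of the list, with 1.32 to 2.56 CPM in WT, 0.735 to 1.38 CPM in Dp1Tyb, where replicate 4 lay above the lowest WT library, and a log2 fold change of −0.91 (unadjusted p 0.0137, adjusted p 0.999). The insulin-responsive glucose carrier Slc2a4 stood at −0.72 at a level of 0.240 RPKM.

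Of 19 genes listed as metabolic targets of RIP140 or PGC-1α, 13 were tested. With relative scaling 6 were higher and 7 lower, and with spike-in scaling 7 and 6. Citrate synthase, Cs, at 43.7 RPKM and the acyl-CoA dehydrogenase Acadl at 31.8 RPKM led the list, with log2 fold changes of 0.13 and 0.04. Pdk4, which turns down pyruvate oxidation, stood at −0.57 (unadjusted p 0.0261) and Cpt1a, the carnitine transferase of mitochondrial fatty acid import, at −0.25 (unadjusted p 0.0508). The brown fat genes Ucp1, Cidea and Elovl3 had no row in the table and were not analysed here.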

How the data were processed

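Per the labels and methods, the authors trimmed reads with Trim Galore, aligned them with TopHat2 2.0.12 to GRCm38 and the spike-ins, discarded reads with several alignments and counted genes with HTSeq, which gave the deposited raw counts. The strand option and annotation release are not given in the sources used here. The deposited normalised values and the authors' DESeq2 1.6.3 table, which holds their fold changes and p-values, were not used. Positions and lengths came from GENCODE, in which 19318 gene IDs matched, and promoter windows from RefSeq, in which 7 of 10 members matched, not Cebpd, Fabp4 or Lpl.

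Raw counts were filtered with filterByExpr and fitted with edgeR 4.0.16 in R 4.3.3 by the two-sided quasi-likelihood test over 8 libraries, with genotype as the only term. Libraries were scaled by median-of-ratios factors over 63 spike-ins or by TMM, and a call required an adjusted p (Benjamini-Hochberg) below 0.05. Intervals are 95%. CPM and RPKM were computed from the TMM-scaled counts, with a pseudocount of 0.5 on the log2 scale. DESeq2 1.42.0 and limma 3.58.1 (voom), other factors and filters, each library left out and a replicate block served as alternatives. The steps were tested on simulated data drawn with the spread fitted for each gene's level. That run did not cover genes that scatter more than this, such as Cd36 and Ppargc1a. The cultures came from separate littermate embryos, and no 2 libraries of a genotype agreed within counting noise (chi-square per degree of freedom 10.4 to 95.7). Pparg had 49 to 115 raw counts per library and Ppargc1a 57 to 354, and the part of depth in their precision was not tested. Named genes were all members, the neighbours of Nrip1, the 2 most abundant and the 2 with the smallest p of each list, and the 3 nearest in pattern to Nrip1, Pparg and Lpl, except 1 list gene that is not reported here. Members and lists were chosen with earlier results of these data known.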

Additional observations from a re-analysis of the deposited data

Results flagged for a closer look

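In 4 of the 40 groups of 4 libraries examined (10 members, 2 genotypes and 2 scalings), one library stood apart by Dixon's ratio, the gap to its nearest neighbour over the range of the group, being above its 95% critical value. Chance gives about 1 in 20. Cd36 was high in Dp1Tyb replicate 1 with both scalings, with ratios of 0.9392 on the relative and 0.8294 on the spike-in scale, the latter barely over that value. Lpl was high in WT replicate 1 with spike-in scaling, with a ratio of 0.9581, where it had 6421 scaled counts beside 2820 to 2971 in the other WT libraries. Pparg was high in WT replicate 4 with spike-in scaling, with a ratio of 0.9342, at 119 scaled counts beside 80.6 to 83.1. Lpl and Pparg did not stand apart on the relative scale. The summed macrophage markers were highest of all libraries in WT replicate 1, and their part in these values was not tested.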

How the results depend on the processing

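Counts of called members were 0 under every alternative except 2. Without Dp1Tyb replicate 1, 1 member (Cd36) was called with spike-in scaling, so that leaving out libraries gave 0 to 1 calls there. That fit called 4 of all 16470 genes. The library left out is the one in which Cd36 stood apart, and with relative scaling Cd36 was not called without it (adjusted p 0.144 in edgeR). With the replicate block, 1 member was called with each scaling, Cd36 at a log2 fold change of −1.26 and an adjusted p of 0.00189 with spike-in scaling, which rests on the spread pooled over genes (−1.35 and 0.233 with relative scaling), and Lpl at −0.80 and 0.0374 with relative scaling, and genes called in all went from 2 to 9 and from 3 to 7. The numbers do not pair the cultures by label, and the correlations of same-numbered deviations were 0.37, 0.52, 0.03 and 0.33, with WT replicate 3 closest to Dp1Tyb replicate 4. Estimates changed sign when libraries were left out for Ppargc1a (−0.90 to 0.0065), Cebpb (−0.49 to 0.11) and Fabp4 (−0.38 to 0.18) with spike-in scaling and for Cebpd (−0.0071 to 0.27) and Plin2 (−0.026 to 0.20) with relative scaling. Nrip1 stayed at 0.44 to 0.81 (adjusted p 0.643 to 1.00) and 0.37 to 0.52 (adjusted p 0.294 to 1.00), and its difference from the ratio of copies at −0.14 to 0.22 (unadjusted p 0.433 to 0.997) and −0.22 to −0.06 (0.180 to 0.680). Leave-one-out estimates of Lpl ran from −0.97 to −0.33 and from −0.98 to −0.59, and those of Cd36 from −1.98 to −0.58 and from −2.02 to −0.83. Over all genes, DESeq2 called 53 with relative scaling, limma-voom called 7 and 5, and a minimum of 10 counts in every library left 0 calls. With spike-in scaling the within-genotype SD moved for 8 members, to 0.51 for Nrip1, 0.56 for Lpl and 0.21 for Pparg. With 4 libraries a genotype, the intervals of Pparg, Ppargc1a, Cebpb, Fabp4 and Cd36 with relative scaling held both no change and a 1.5-fold lower level.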
